A study of Mus musculus with 4 samples.

Results

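The claudin genes of the mouse, which encode the membrane proteins of tight junction strands, were examined for binding of the transcription factor Tfcp2l1 in embryonic stem cells. They were taken by name: all protein-coding genes of the RefSeq table of build GRCm38.p6 whose symbol is Cldn followed by a digit, 35 genes of 21883. Of these, 23 lie on autosomes and 12 on chromosome X, and together they sit on 10 chromosomes. The comparison set was the other 21848 protein-coding genes. Binding was read from chromatin immunoprecipitation followed by sequencing (ChIP-seq), which counts the DNA fragments that an antibody pulls down along the genome.

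The study held 4 libraries in 2 repeats, each repeat with 1 library from DNA immunoprecipitated with an antibody against Tfcp2l1 and 1 library from input DNA that was not immunoprecipitated. All libraries came from wild-type, untreated embryonic stem cells kept in 2i, a serum-free medium with 1000 units/mL of LIF, 3 µM of the GSK3 inhibitor CHIR99021 and 1 µM of the MEK inhibitor PD0325901. The design text gives 50000000 cells and 10 µg of an antibody made for the study; the labels name no cell line or clone, and nothing in them ties the repeats to different cultures, so differences between repeats may be purely technical. No RNA or protein was measured, so the cell type could not be checked against markers and no value below is a level of expression.

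Claudins span the cell membrane several times, and their outer loops pair with claudins of the neighbouring cell to form the strands that seal the space between epithelial or endothelial cells. Some members tighten that seal and others line pores that let selected ions or water pass, so the mixture of claudins in a tissue sets what leaks through it. Tfcp2l1 is a grainyhead-related factor of the naive pluripotency network in mouse embryonic stem cells, and outside the embryo it is known from epithelia such as the collecting duct of the kidney, where claudins are also expressed.

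The authors listed 57614 peaks in repeat 1 and 51610 in repeat 2, from 19353473 and 22555373 ChIP tags after duplicate filtering, set against 18446758 and 23825930 input tags. A peak of repeat 1 was called shared where it overlapped a peak of repeat 2 by at least 1 bp, which 43851 did. Each shared peak was given to a gene if its repeat 1 summit lay inside the gene or within 10 kb of either end. The median fold enrichment, a ratio of ChIP tags over local background, was 12.1 over all peaks of repeat 1 and 10.2 over all peaks of repeat 2. The highest 10% of each list began at 43.4 in repeat 1 and 32.2 in repeat 2. Fold enrichments are the authors' values for single peaks, and wherever a pair of values is given below, repeat 1 comes first and repeat 2 second.

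A shared Tfcp2l1 peak lay in or within 10 kb of 16 of the 35 claudin genes (45.7%, exact 95% binomial interval 28.8% to 63.4%), against 64.5% of the other protein-coding genes. The interval ended just below the share of the other genes, and like those that follow it covers counting error only. In repeat 1 taken alone 20 claudin genes (57.1%) had a peak, against 71.4% of other genes, and in repeat 2 alone 18 (51.4%) had one, against 68.1%. The claudin genes with a shared peak were Cldn3, Cldn4, Cldn5, Cldn6, Cldn7, Cldn9, Cldn11, Cldn12, Cldn13, Cldn14, Cldn19, Cldn20, Cldn23, Cldn25-ps, Cldn34a and Cldn34b3. A further 5 had peaks of 1 repeat only (Cldn10, Cldn15, Cldn18, Cldn34c1 and Cldn34c4), and 14 had no peak of either repeat.

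The gap was nearly as wide against other genes within the claudin range of lengths, 660 bp to 89.8 kb, of which 62.0% had a shared peak. This range is wide, keeping 17821 of the 20638 other autosomal genes, so it does not match the lengths. On autosomes 14 of 23 had a shared peak (60.9%, interval 38.5% to 80.3%), against 66.9% of other autosomal genes and against 64.5% of those within that range of lengths. On chromosome X it was 2 of 12 (16.7%, interval 2.09% to 48.4%), against 29.7% of other X-linked genes. Autosomal claudin genes are short, with a median length of 2.36 kb against 17.5 kb for other autosomal genes, so their windows cover less sequence. With a fixed window of 20 kb centred on each gene the direction turned: 15 of 35 claudin genes (42.9%) had a shared peak, against 41.3% of other genes, and on autosomes 13 of 23 (56.5%), against 43.1%. The part of chromosome and length in the gap was not tested. Every interval of a claudin share on autosomes, on X or in a fixed window contained the share of the other genes.

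**Figure D1:**
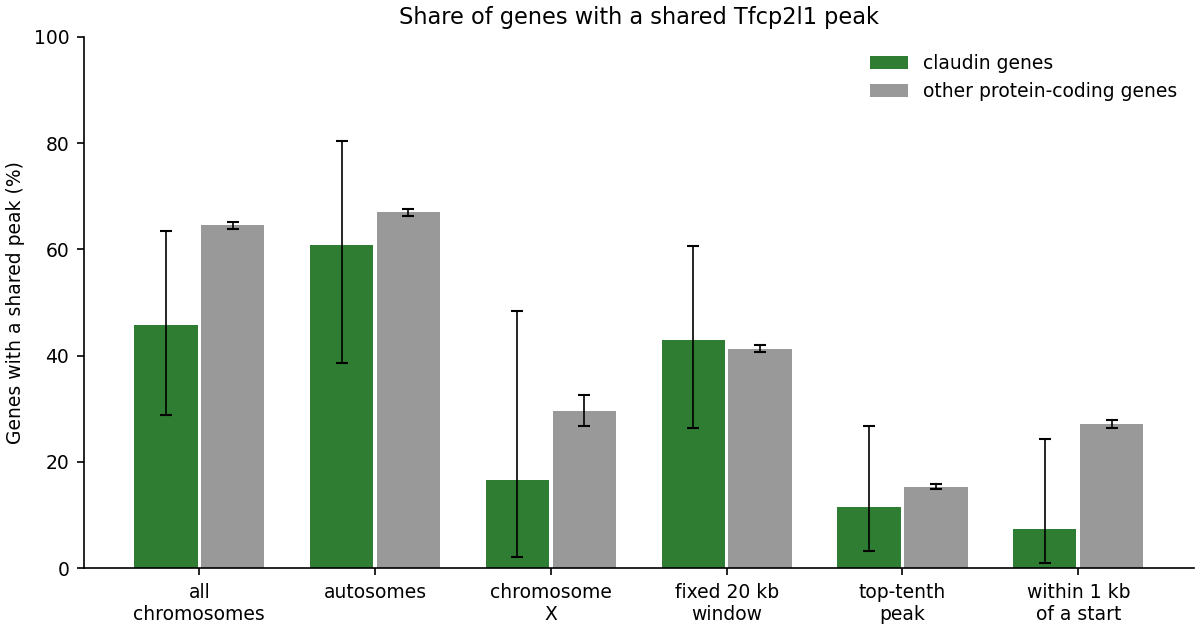
Percentage of claudin genes (green, left bar of each pair) and of other protein-coding genes (grey, right bar) with a Tfcp2l1 peak found in both repeats, under 6 definitions; error bars are exact 95% binomial intervals. The gap of 45.7% against 64.5% over all chromosomes is smaller on autosomes, at 60.9% against 66.9%, and turns in the fixed 20 kb window. The widest gap relative to the bars is within 1 kb of a start site, at 7.41% against 27.1%, which covers only the 27 claudin genes with a stranded start.

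The 16 genes with a shared peak carried few of them. Exactly 1 was found at 9 genes and 2 at Cldn5 and at Cldn7, while 3 or more were found at Cldn4, Cldn6, Cldn9, Cldn14 and Cldn19. Those 5 are 14.3% of the claudin genes, against 27.6% of other genes; on autosomes the share was 21.7%, against 29%. The mean was 1.35 shared peaks per autosomal claudin gene against 2.01 per other autosomal gene, but per megabase of gene and flanks it was 40.8 against 29.4. The 33 assignments came from 30 peaks, because Cldn6 and Cldn9 share the same 3. A claudin gene was the nearest protein-coding gene, or tied for nearest, for 23 of the 30, and counted by nearest gene 14 claudin genes (40%) had a shared peak, against 55.4% of other genes.

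Peaks at claudin genes covered nearly the whole range of strengths. Fold enrichments ran between 4.43 and 156.66 in repeat 1 and between 4.69 and 116.55 in repeat 2, with medians of 15.7 and 15.4, against medians of 15.5 and 11.8 over all shared peaks. In the top 10% of both lists were 6 of the 30 (20%), against 9.63% of all shared peaks, and these 6 came from only 4 loci: 2 at Cldn4, 2 at Cldn14, 1 at Cldn7 and 1 at Cldn19. Counted by gene, 4 of 35 claudin genes (11.4%) had such a peak, against 15.3% of other genes, and on autosomes 4 of 23 (17.4%), against 16%. So a few strong sites lifted the share over peaks, while the share over genes lay near the background. The repeats placed the sites closely, with a median distance of 19.5 bp between matched summits, against 28 bp over all shared peaks, and 25 of the 30 within 100 bp.

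**Figure D2:**
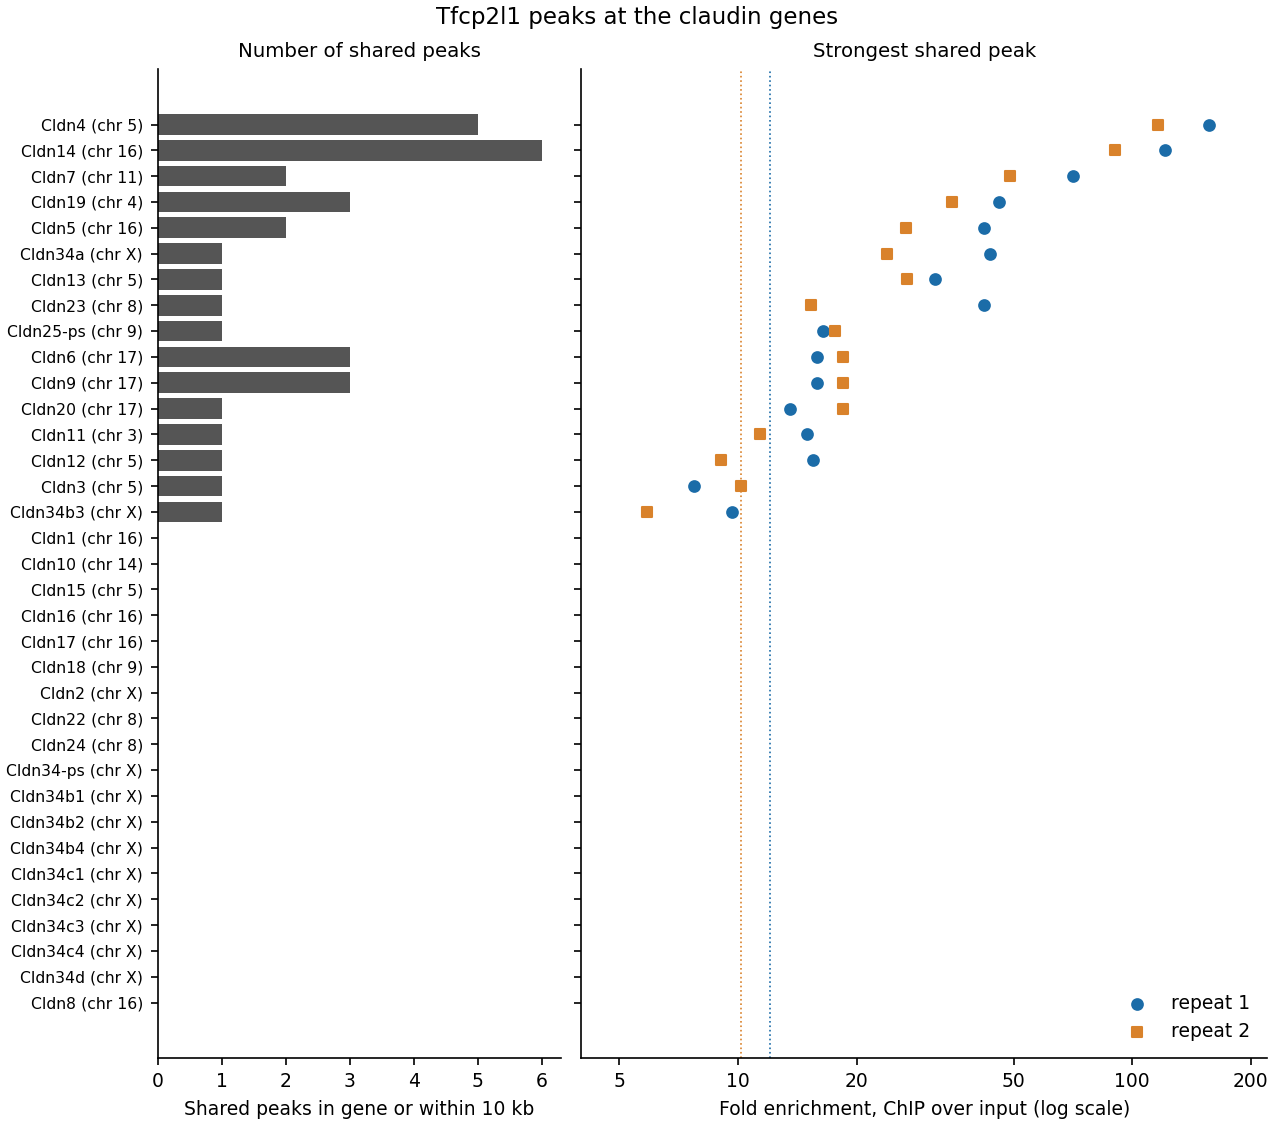
Number of shared Tfcp2l1 peaks in or within 10 kb of each of the 35 claudin genes (left) and fold enrichment of the strongest of them in repeat 1 (circles) and repeat 2 (squares) on a log axis (right); dotted lines mark the median of all peaks of each repeat. Cldn4 stands highest at 157 and 117, followed by Cldn14 at 121 and 90.6, and 19 genes have no shared peak.

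**Figure D3:**
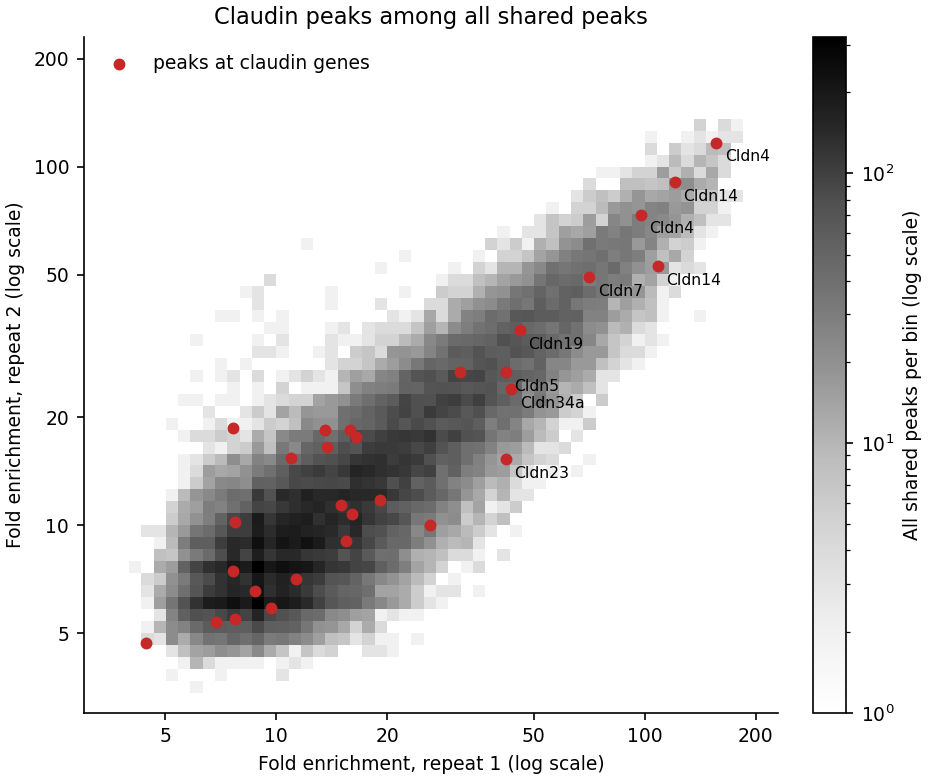
Fold enrichment in repeat 1 (x axis) and repeat 2 (y axis), both on log scales, of the shared peaks at claudin genes (red points) over the density of all shared peaks (grey bins). The peaks of Cldn4 and Cldn14 lie at the upper end of the cloud, and the peak of Cldn23 lies to the right of its centre, at 42.03 in repeat 1 and 15.3 in repeat 2.

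The strongest claudin site was at Cldn4. Cldn4 encodes a claudin of many epithelia that, in humans and mice, is a receptor of Clostridium perfringens enterotoxin; it lies on the minus strand at chr5:134945123-134946934 (GRCm38). The site, at chr5:134940770-134942572 in repeat 1, held 679 ChIP tags (exact Poisson 95% interval 629 to 732) in repeat 1 and 609 (562 to 659) in repeat 2, or 35.1 and 27.0 per 1000000 filtered tags. Its fold enrichments of 157 and 117 ranked within the highest 0.0998% of repeat 1 and 0.0630% of repeat 2. The summit lay 3.10 kb beyond the 3′ end of Cldn4 and inside the neighbouring gene Mettl27, 609 bp before that gene's own end. Mettl27, named as a methyltransferase-like gene, is on the plus strand, so the 2 genes face each other and the site sits between their start sites, 4.91 kb downstream of that of Cldn4. The peak list does not tell which of the 2 genes, if either, the site acts on.

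A further strong peak covered Cldn4 itself. It held 465 and 293 tags with fold enrichments of 97.8 and 73.4, and its summit lay inside the gene, 1.37 kb downstream of the start site. In repeat 1 the peak was 1 broad interval, chr5:134945028-134948613, while repeat 2 listed beside its own peak a separate one of 65 tags (fold 8.24) over the start site. The remaining peaks were weaker. Upstream of the start by 4.59 kb was another shared peak of 148 and 80 tags (fold 16.1 and 10.8). Another was a peak inside Mettl27, 8.04 kb from Cldn4, with 35 and 30 tags (fold 11.3 and 7.06). The fifth shared peak, of 39 tags (fold 9.1) in repeat 1, overlapped the same repeat 2 peak as the strongest site but had its summit 1066 bp from it, so it has no repeat 2 value of its own. Both top peaks at Cldn4 were in the top 10% of each list, and the other 3 were not.

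Cldn4 and Cldn3 point away from each other across 39.3 kb with no other protein-coding gene, and this stretch was rich in peaks. Cldn3, which like Cldn4 binds the enterotoxin, is on the plus strand at chr5:134986214-134987476. The gap held 5 shared summits, or 12.7 per 100 kb, against 3.06 per 100 kb over 15886 gaps between other neighbouring autosomal genes no wider than the widest claudin gap, 91.3 kb. As many summits or more were found in 337 of those gaps (2.12%), and in 4.97% of the 2052 that measured 30 to 50 kb. Of the 5 peaks, 3 lay beyond 10 kb of both genes and so were not counted for either. They held 247 and 231 tags (fold 36.4 and 43.2) at 18.8 kb from Cldn3, 203 and 174 tags (fold 70.5 and 32.7) at 15.3 kb, and 126 and 120 tags (fold 28.6 and 22.4) at 12.7 kb. All 3 were stronger in both repeats than the single shared peak counted for Cldn3, which had 30 and 63 tags (fold 7.73 and 10.2) and lay 4.47 kb upstream of its start. At the Cldn3 start itself repeat 1 listed a peak of 89 tags (fold 9.64) with its summit 39 bp upstream, and repeat 2 listed none there.

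Cldn13, a claudin gene of rodents without a human counterpart, lies on the other side of Mettl27 at chr5:134914250-134915530. It had 1 shared peak, 4.44 kb away, with 154 and 137 tags and fold enrichments of 31.5 and 26.8. Including that peak, 12 shared peaks with distinct values in both repeats lay between Cldn13 and Cldn3, and 8 shared peaks were assigned to Mettl27. In humans the genes for claudins 3 and 4 belong to the region deleted in Williams-Beuren syndrome.

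**Figure D4:**
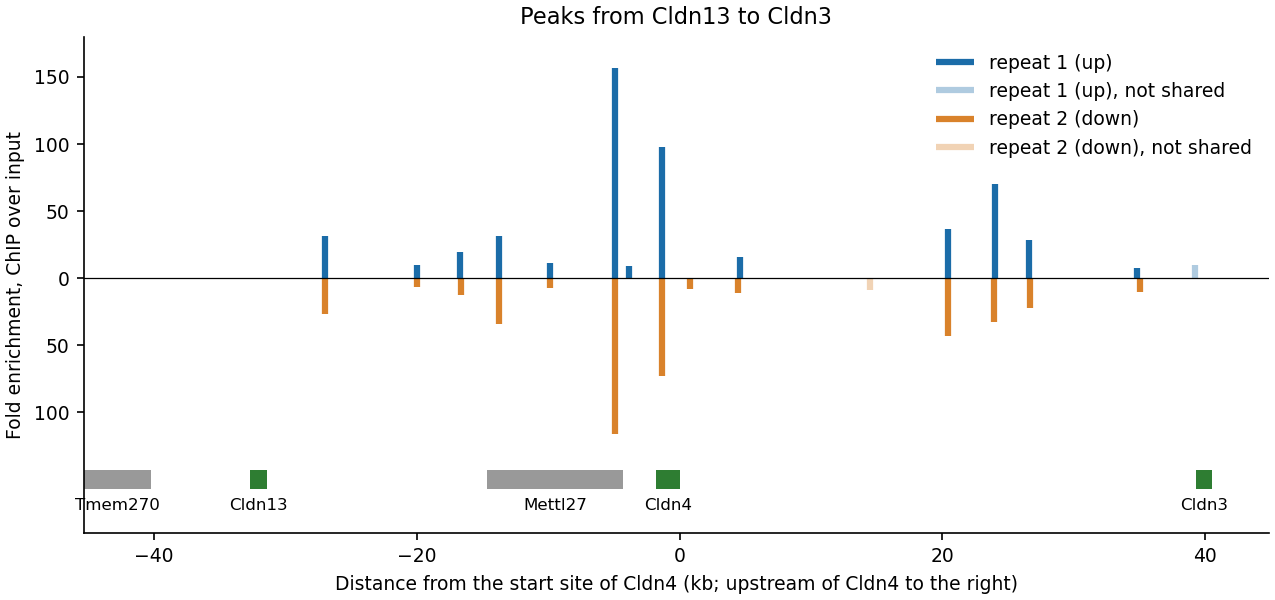
Tfcp2l1 peaks between Cldn13 and Cldn3, by distance of the summit from the Cldn4 start site in kb; bars give fold enrichment upward for repeat 1 and downward for repeat 2, pale bars are peaks of 1 repeat only, and boxes are genes (claudins in green). The highest bars, 157 and 117, stand inside the end of Mettl27, and 3 shared peaks stand in the gap between Cldn4 and Cldn3 beyond 10 kb of both.

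Cldn14, at chr16:93919031-94008837 on the minus strand had the most shared peaks, 6, and each of them lay 55.2 kb or more from any other protein-coding gene. It encodes a claudin that limits cation flow in the inner ear and kidney, and its loss causes deafness in humans and mice. The strongest peak was inside the gene, 7.26 kb downstream of the start, with 523 and 490 tags and fold enrichments of 121 and 90.6. A neighbouring peak 5.08 kb downstream held 287 and 254 tags (fold 109 and 52.7). These were followed by a peak 4.66 kb upstream of the start, with 102 and 80 tags (fold 26.1 and 10.0). The other 3, all inside the gene, held between 27 and 70 tags in repeat 1 and between 29 and 67 in repeat 2, with fold enrichments of 4.43 to 10.9 and 4.69 to 15.4. The peak with 27 and 29 tags had the lowest fold enrichment of all shared peaks at claudin genes in each repeat. Cldn14 is 89.8 kb long, the longest claudin gene, so its window covers more sequence than that of any other claudin gene.

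Cldn7 and Cldn19 were the remaining genes with a peak in the top 10% of both lists. Cldn7, whose protein lies along the whole basolateral membrane of epithelial cells as well as at tight junctions, is at chr11:69964779-69967886 on the plus strand. Its main peak had 211 and 202 tags with fold enrichments of 70.8 and 49.1, and the summit lay 331 bp downstream of the second of its RefSeq starts. A weaker peak near its 3′ end, 1.95 kb downstream of that start, held 123 and 81 tags (fold 13.7 and 16.5). Cldn19, which in the kidney pairs with the Cldn16 protein in the reabsorption of magnesium, is at chr4:119255441-119262438 on the plus strand. Inside it, 1.17 kb downstream of its start, lay a peak of 280 and 184 tags (fold 45.8 and 34.9). The other peaks of Cldn19 were also inside the gene, with 47 and 25 tags (fold 7.73 and 5.49) and with 52 and 113 tags (fold 7.63 and 18.7). In the last of these the repeats differed most in the direction of repeat 2, at 2.69 and 5.01 tags per 1000000. Beside its own main peak, repeat 2 also listed a separate peak of 26 tags (fold 5.89) at the start of Cldn19. A further repeat 2 peak inside the gene held 25 tags (fold 4.67), and both overlapped the main peak of repeat 1.

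Cldn6 and Cldn9 lie 137 bp apart on chromosome 17 and share their 3 peaks. Cldn6 is a claudin of embryonic epithelia and of pluripotent stem cells, and loss of Cldn9 causes deafness in mice. The peak 5.48 kb from Cldn6 and 8.72 kb from Cldn9 held 88 and 98 tags (fold 15.9 and 18.4), and its summit lay inside Thoc6 and Hcfc1r1, which overlap there. A peak inside Cldn6 held 33 and 28 tags (fold 6.87 and 5.36). The third lay 831 bp from Cldn9 with 63 and 45 tags (fold 19.1 and 11.8). None of these was in the top 10% of both lists.

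**Figure D5:**
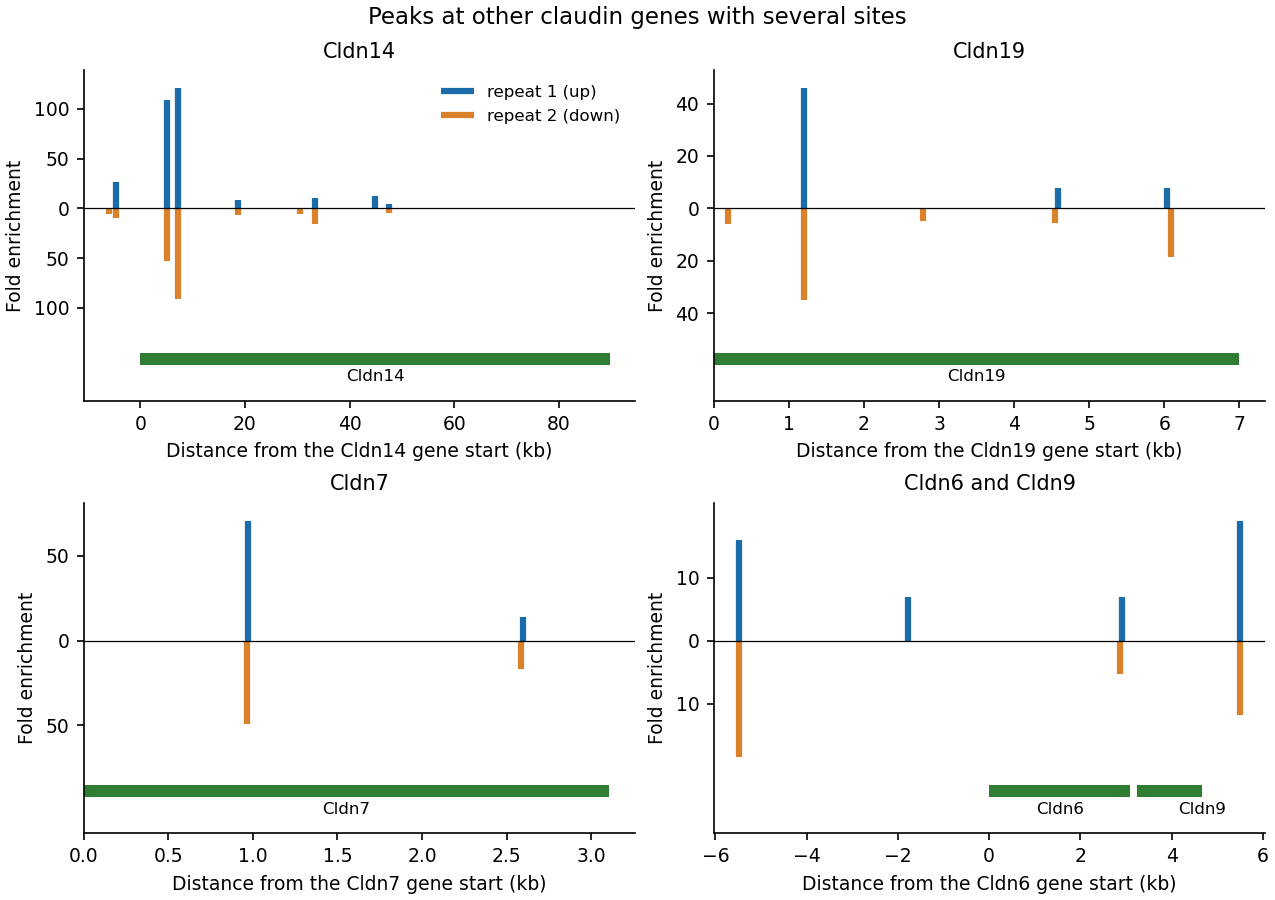
Tfcp2l1 peaks in and within 10 kb of Cldn14, Cldn19, Cldn7 and the pair Cldn6 and Cldn9, by distance of the summit from the gene start in kb; bars give fold enrichment upward for repeat 1 and downward for repeat 2, each panel on its own scale, and green boxes are the genes. The strongest peaks of Cldn14, Cldn19 and Cldn7 lie inside the genes, at 121 and 90.6, at 45.8 and 34.9, and at 70.8 and 49.1.

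Among the claudin genes with a stranded start, few had a shared summit near it. Stranded starts were available for 27 of the 35 genes, and a shared summit lay within 1 kb of a start at 2 of them, Cldn5 and Cldn7 (7.41%, interval 0.910% to 24.3%), against 27.1% of 17464 other genes. This interval lay below the share of the other genes. On autosomes it was 2 of 19 (10.5%, interval 1.30% to 33.1%), against 28.2%, and there the interval contained the share of the other genes. Genes without a stranded start were left out, among them Cldn9, with a shared summit 831 bp beyond an end, and Cldn23, with a shared summit inside. Only repeat 1 summits were placed. Repeat 2 listed separate peaks with summits within 1 kb of the starts of Cldn4 (65 tags) and Cldn19 (26 tags). Both overlapped repeat 1 peaks whose summits lay farther away, so they did not count. Inside the promoter window, 250 bp before to 50 bp after a start, a shared summit was found at Cldn5 alone, 1 of 27 genes (3.70%), against 9.71% of other genes, and on autosomes 1 of 19 (5.26%), against 10.1%. Of the 27 peaks at a gene with a stranded start, 10 lay upstream of the nearest start and 17 downstream.

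Cldn5, the main claudin of endothelial cells and of the blood-brain barrier, is at chr16:18776847-18778262 on the plus strand. Its promoter peak held 154 and 128 tags with fold enrichments of 42.03 and 26.7, and the summits lay 153 bp and 81 bp upstream of the start. A weaker peak 7.59 kb away, inside Cdc45, held 29 and 36 tags (fold 7.61 and 7.46). Besides Cldn5, summits fell in the promoter windows of Cldn3 and of the second start of Cldn10, each in repeat 1 only. Peak intervals of both repeats covered the promoters of Cldn4, of the second start of Cldn7 and of both starts of Cldn19, with their summits outside those promoter windows. The 4 promoters are printed here because they are the claudin promoters where the lists place a summit in either repeat or, for Cldn4, because it is the strongest locus. The sequences are from RefSeq, build GRCm38.p6, written 5′ to 3′ on the strand of the gene, and capitals mark CCAG and its reverse complement CTGG, the core that is repeated in the known recognition sequence of Tfcp2l1.
Cldn5 promoter, plus strand, chr16:18776597-18776896: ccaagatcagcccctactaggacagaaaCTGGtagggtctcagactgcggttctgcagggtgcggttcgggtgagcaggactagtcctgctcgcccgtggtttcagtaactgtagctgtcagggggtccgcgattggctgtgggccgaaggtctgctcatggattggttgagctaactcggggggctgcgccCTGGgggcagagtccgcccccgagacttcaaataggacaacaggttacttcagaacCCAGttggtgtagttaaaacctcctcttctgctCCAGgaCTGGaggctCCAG
Cldn3 promoter, plus strand, chr5:134985964-134986263: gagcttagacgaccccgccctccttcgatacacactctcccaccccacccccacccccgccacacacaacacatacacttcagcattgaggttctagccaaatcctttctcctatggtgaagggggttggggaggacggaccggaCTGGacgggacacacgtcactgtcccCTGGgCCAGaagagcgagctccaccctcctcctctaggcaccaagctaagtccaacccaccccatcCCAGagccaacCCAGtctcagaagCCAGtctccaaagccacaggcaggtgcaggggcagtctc
Cldn10 promoter of the second start, plus strand, chr14:118854700-118854999: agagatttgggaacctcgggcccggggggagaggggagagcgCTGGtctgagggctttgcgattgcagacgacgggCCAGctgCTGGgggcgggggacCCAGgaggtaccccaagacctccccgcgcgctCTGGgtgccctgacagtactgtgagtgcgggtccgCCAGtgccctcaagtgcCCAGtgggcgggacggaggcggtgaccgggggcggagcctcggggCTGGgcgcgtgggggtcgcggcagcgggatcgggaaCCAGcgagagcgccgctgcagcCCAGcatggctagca
Cldn4 promoter, minus strand, chr5:134946885-134947184: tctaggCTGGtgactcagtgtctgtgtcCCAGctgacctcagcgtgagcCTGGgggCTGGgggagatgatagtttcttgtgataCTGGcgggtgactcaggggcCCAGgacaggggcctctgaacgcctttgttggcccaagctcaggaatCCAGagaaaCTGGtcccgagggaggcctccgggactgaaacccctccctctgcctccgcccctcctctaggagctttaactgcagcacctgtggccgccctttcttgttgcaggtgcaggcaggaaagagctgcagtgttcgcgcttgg

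The cores were counted on both strands, with overlaps allowed. There were 6 in the Cldn5 promoter, 6 in that of Cldn3, 10 in that of the second Cldn10 start and 8 in that of Cldn4. At least 1 core was present in 32 of 35 claudin promoters (91.4%), against 97.1% of 21227 other promoters of the same length, with a median of 4 in each set. A tandem of CCAG and CCAG, with 6 bases of any kind between them, was found in 1 claudin promoter, that of Cldn20 (2.86%), against 3.49% of other promoters. The variant with CCGG in place of the second CCAG was found in none of the 35, against 2.37%. None of the 4 promoters printed above held either tandem. A match is a description of the letters, and the windows of the stronger peaks away from start sites were not searched because no genome sequence was used here.

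The remaining claudin genes with a shared peak had 1 each. Cldn23 on chromosome 8 had a peak inside the gene in which the repeats differed most among claudin peaks with 100 or more tags, with 153 tags (exact Poisson 95% interval 130 to 179) and 61 tags (46.7 to 78.4), or 7.91 and 2.70 per 1000000, and fold enrichments of 42.03 and 15.3. Cldn34a had a peak inside the gene with 123 and 104 tags (fold 43.5 and 23.9), the stronger of the 2 shared peaks at X-linked claudin genes. The other was at Cldn34b3, 2.42 kb away, with 30 and 30 tags (fold 9.66 and 5.89). Neither of the next peaks has a claudin gene as its nearest gene. Cldn25-ps had a peak of 76 and 83 tags (fold 16.4 and 17.7), but it lay 7.19 kb from that gene and 48 bp from Zw10. Cldn20 had a peak of 51 and 75 tags (fold 13.5 and 18.4) 1700 bp upstream of its start, and this one lay inside Tfb1m. Cldn11, the claudin of myelin and of Sertoli cells, had 41 and 41 tags (fold 15.0 and 11.4) 3.76 kb upstream. Cldn12, a claudin that lacks the usual PDZ-binding end, had 50 and 42 tags (fold 15.5 and 9.03) 232 bp beyond its 3′ end.

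Peaks of 1 repeat only had fold enrichments below the medians of the shared claudin peaks, 15.7 and 15.4, except for the stronger peak at Cldn15. There were 9 of repeat 1 in claudin windows, with fold enrichments of 4.05 to 16.2 and 21 to 89 tags, against a median of 46 tags over all repeat 1 peaks, and 6 of repeat 2, with fold enrichments of 5 to 9.03 and at most 37 tags, against a median of 48 over all repeat 2 peaks. Of all repeat 1 peaks in claudin windows 76.9% were shared, against 76.1% of all repeat 1 peaks. Cldn15, a cation channel of the intestine, had peaks of 50 and 32 tags (fold 16.2 and 8.23) in repeat 1 alone. Cldn10, which forms ion channels in the kidney, had 50 and 48 tags (fold 4.05 and 8.66) at separate peaks of repeat 1, the second with its summit 53 bp upstream of the second start, and 20 and 24 tags (fold 5 and 6.28) at separate peaks of repeat 2. Cldn18, a claudin of lung and stomach, had 36 tags (fold 9.03) in repeat 2 alone. On chromosome X, Cldn34c1 had 21 tags (fold 7.73) and Cldn34c4 had 32 tags (fold 6.28), each in repeat 1 alone.

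No peak of either repeat was listed at 6 autosomal and 8 X-linked claudin genes. The autosomal ones were Cldn1, the claudin without which mice lose the water barrier of the skin; Cldn8, of the distal nephron; Cldn16, needed for magnesium reabsorption in the kidney; Cldn17, which forms an anion channel; and Cldn22 and Cldn24. On X they were Cldn2, a cation and water channel of the proximal tubule, and 7 genes named Cldn34. The list shows only peaks above the caller's threshold, so weaker binding at these genes was not measured.

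By role, 7 of 9 barrier-forming claudin genes had a shared peak (77.8%, interval 40.0% to 97.2%), and 0 of 5 channel-forming ones did (upper limit 52.2%). The share of other genes, 64.5%, lay inside the interval of the barrier-forming genes and above the upper limit of the channel-forming ones. The barrier-forming genes were Cldn1, Cldn3, Cldn4, Cldn5, Cldn6, Cldn11, Cldn14, Cldn18 and Cldn19, and the channel-forming ones Cldn2, Cldn10, Cldn15, Cldn16 and Cldn17. The channel-forming count of 0 rested on requiring both repeats. With repeat 1 alone it was 2 of 5 (40%), against 71.4% of other genes, and with repeat 2 alone 1 of 5 (20%), against 68.1%. Of the 21 genes in neither role list 9 had a shared peak (42.9%), and 7 of the 10 autosomal ones did. Of the classic claudins, grouped by sequence likeness, 8 of 14 had one (57.1%), and of the non-classic 8 of 21 (38.1%), again against 64.5%. On autosomes alone the classic and non-classic shares were 8 of 13 (61.5%) and 6 of 10 (60%), a difference far inside their intervals, 31.6% to 86.1% and 26.2% to 87.8%, and both were near the 66.9% of other autosomal genes. The 4 genes with a peak in the top 10% of both lists were all classic claudins, and no non-classic gene had more than 1 shared peak.

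Of the claudin genes, 8 pairs are neighbours with no other protein-coding gene between them. Both genes had a shared peak in 2 pairs, Cldn4 with Cldn3 and Cldn6 with Cldn9 (25%), against 52.2% of 21800 other adjacent pairs and 53.9% of those with no wider gap than the widest claudin pair. At least 1 gene had a peak in 3 pairs (37.5%), against 76.9%, and 77.4% with the gap limit. On autosomes it was both genes in 2 of 5 pairs (40%), against 54.5%, and 56.2% with the gap limit. At least 1 gene had a peak in the same 2 of 5, against 79.4%, and 79.1% with the gap limit. The 3 autosomal pairs with none were Cldn1 with Cldn16, 91.3 kb apart, Cldn17 with Cldn8, 53.8 kb apart, and Cldn24 with Cldn22, 1.68 kb apart. All 5 summits in gaps between autosomal claudin neighbours lay between Cldn4 and Cldn3, and over the 5 gaps together the density was 2.68 per 100 kb, against 3.06. On X, only Cldn34b3 with Cldn34b4 had a gene with a shared peak.

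Among 25 genes whose proteins work beside claudins at the tight junction, 20 had a shared peak (80%, interval 59.3% to 93.2%), against 64.5% of all protein-coding genes other than claudins, with a median of 3 shared peaks. Their median length of 56.2 kb exceeds the 17.2 kb of other genes, and the part of length in this share was not tested. The strongest peak was at Cgn, which encodes the junction plaque protein cingulin, with 241 and 234 tags (fold 79.7 and 64.0). At Magi1, a scaffold gene with 23 shared peaks, the strongest held 227 and 261 tags (fold 72.0 and 62.3). Jam2, a junctional adhesion molecule, had 6 shared peaks, and at the strongest 159 and 169 tags (fold 50.7 and 38.9). Marveld2, which encodes tricellulin, and the polarity gene Pard6a had no peak of either repeat.

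Relatives of the claudins in the wider protein superfamily had a shared peak at 18 of 20 genes (90%, interval 68.3% to 98.8%), against the same 64.5%, and their median length, 18.8 kb, was close to that of other genes. This interval lay above the share of the other genes. Emp2, an epithelial membrane protein gene, had 382 and 339 tags (fold 112 and 80.4) at a single shared peak 3.15 kb away. Cacng4 and Cacng2 encode regulatory subunits of calcium channels and AMPA receptors. Their strongest peaks held 383 and 347 tags (fold 113 and 78.2) at Cacng4 and 360 and 347 tags (fold 105 and 73.8) at Cacng2. Cldnd1, a claudin-domain gene, had 207 and 276 tags (fold 73.9 and 65.9) inside the gene. Tmem114 had no peak of either repeat. None of these exceeded the strongest peak at Cldn4 in either repeat. Some relatives are neighbours and share peaks, as Cacng6 and Cacng8 do at their strongest site, so they are not separate observations.

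The 10 kb limit left peaks just outside, and none of those listed here was in the top 10% of both lists. The peaks farthest inside it were the one at 8.04 kb from Cldn4 (fold 11.3 and 7.06) and the one at 8.72 kb from Cldn9 (fold 15.9 and 18.4). Just outside were peaks at 10.9 kb from Cldn15 (fold 7.31 and 13.3), 11.4 kb from Cldn13 (fold 9.53 and 6.67), 11.7 kb from Cldn14 (fold 30.7 and 19.2), 11.9 kb from Cldn4 (fold 31.5 and 34.1) and 12.0 kb from Cldn9 (fold 29.5 and 24.7).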

How the data were processed

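Per the file headers, the authors called peaks with MACS 1.4.1 in each repeat separately, ChIP against the input of the same repeat, with a p-value threshold of 1e-05, a tag size of 35 bp, at most 2 duplicate tags per position and an effective genome size of 1870000000 bp. CASAVA 1.8.2 is named in the submitters' processing notes, and an aligner was not given in the sources used here. As deposited, a peak's tag count is a whole number of ChIP tags, not normalized. The deposited fold enrichment is a ratio of ChIP tags to local background, the score, as deposited, is -log10 of the p-value times 10, and the deposited FDR is in percent, at most 0.11 in repeat 1 and 0.12 in repeat 2. Tag counts per 1000000 were computed here from the filtered ChIP totals in the file headers.

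The processing notes name mm9, but peaks on chromosome Y reach 90784139 in repeat 1 and 90757935 in repeat 2, beyond the end of that chromosome in mm9 and inside that of GRCm38, so GRCm38.p6 genes from RefSeq were used. That table has no exons, so exons and introns were not told apart. A repeat 1 peak was matched to the overlapping repeat 2 peak with the nearest summit. Gene lengths, distances and motif counts were computed with Python 3.11.15 and pandas 2.3.3, binomial and Poisson intervals (exact, Clopper-Pearson for shares, 95%) with scipy 1.17.1; the overlap steps were tested on simulated data. No test across genes was run: member counts stand beside the share of other genes.

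The claudin genes and the role, partner and relative lists were chosen with earlier results of these data known. Text names every claudin gene with a shared peak, and of each other list up to 4 genes with the best mean rank and up to 2 without a peak. A gene that this rule names is not reported here. Alternatives were the window, the overlap rule, thresholds on fold enrichment and score, each repeat alone, autosomes alone and the pairs counted.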

Additional observations from a re-analysis of the deposited data

How the results depend on the processing

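Of 83 alternatives tried over the counts reported, 67 left the count within 1.5 times its value and 16 did not. Without flanks 7 claudin genes (20%) had a shared peak, against 44.8% of other genes, with 14 assignments of a peak to a gene. Both genes were bound in 0 of 8 pairs, against 25.7% of other pairs. With 1 kb flanks it was 10 genes (28.6%), against 51.6%, with 18 assignments. The pairs were then 1 of 8 (12.5%), against 34.1%. With 50 kb flanks there were 115 assignments, or 3.29 per claudin gene, against 4.54 per other gene. A minimum fold enrichment of 10 in both repeats left 21 assignments, or 0.6 per claudin gene, against 1.07 per other gene. It left 1 pair of 8 (12.5%), against 34.8% of other pairs. A score of at least 100 left 1 pair, against 40.7%, and summits within 100 bp left 1 pair, against 48.9%. Counting any 2 claudin genes within 100 kb gave 4 of 7 pairs (57.1%), against 55.5% of other such pairs, so that the direction turned. Of these 4 pairs, all but Cldn6 with Cldn9 join Cldn13, Cldn4 and Cldn3 of the same chromosome 5 region, so they are not separate observations. With peaks limited to those inside a gene or within 1 kb, 10 of the 16 genes kept a shared peak. The strongest peak stayed the same at 7 of these and changed at Cldn4, Cldn6 and Cldn9. The channel-forming count was 1 of 5 (20%) without repeat 1, against 68.1% of other genes, and 2 of 5 (40%) without repeat 2, against 71.4%. Only 1 claudin promoter, that of Cldn5, had a shared summit, and it did not hold the tandem motif. The claudin share stayed below that of other genes in 15 of 16 alternatives, the exception being the fixed 20 kb window. Without the Cldn34 genes it was 14 of 24 (58.3%), against 64.5%. Of the 11 Cldn34 genes, all on X, 2 had a shared peak (18.2%). Leaving out genes whose symbol ends in -ps was added after seeing the data and gave 15 of 33 genes (45.5%), against 64.5%. The shares of partners and of relatives stayed above that of other genes in 11 of 11 alternatives each. The fixed 20 kb window, the limit on gene length and the count by nearest gene were not applied to these lists. No paired analysis was possible because each input library is already the control of its own ChIP library inside the peak list. Only 2 repeats exist and only called peaks are listed, so binding below the caller's threshold, and differences in fold between repeats of different depth, were not measured here.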
